A study of Mus musculus with 18 samples.

Results

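The Spata genes, whose shared name stands for spermatogenesis-associated, were followed through 6 sorted germ cell populations of the mouse testis. Members were taken by name alone, as rows of the count table whose symbol begins with Spata and a digit, which gave 29 genes of 46603 in the table. RNA was sequenced from 18 libraries, 3 for each group. The groups are labelled, in the order of the cells' development, Undiff.Spg and Diff.Spg, then PreL and LZ, then PD and finally RS. All cells were sorted from the testes of adult male mice carrying the Stracre-GAG-tdTomato transgenes, whose strain the labels give as C57BL/6 in one place and C57BL/5 in another, and no untreated or transgene-free group was among the samples. The labels spell out neither the group names nor the sort gates, and they do not say that replicates are different animals. The p-values therefore measure only the spread between these libraries, which may be technical.

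Spermatogenesis starts from undifferentiated spermatogonia, which become differentiating spermatogonia, pass through the stages of meiotic prophase and divide into haploid round spermatids, which then build the acrosome, the tail and the condensed sperm head. The Spata genes share a naming history, not an ancestry: most received the name because their transcripts were found in testis. Among them are structural proteins of the sperm neck and midpiece, proteins of the forming acrosome, an AAA-type ATPase and a ubiquitin adaptor, and for several of them no function is given here.

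Library totals ran from 11777947 to 16607462 counts. Marker lists clearly singled out Undiff.Spg, LZ and RS. Undifferentiated spermatogonia markers summed to 2071 CPM (counts scaled to library size) in Undiff.Spg, against at most 295 elsewhere on average. Leptotene and zygotene markers summed to 3296 CPM in LZ against at most 981, and round spermatid markers to 1743 CPM in RS against 415 in PD. Markers of elongating spermatids, which share Tnp2 and Prm2 with the round spermatid list, were also highest in RS, at 3252 CPM against 525 in PD, and their part in the RS levels of the Spata genes was not tested. The short lists for differentiating spermatogonia and preleptotene cells did not single out their groups, since the first had means of 1702 CPM in Diff.Spg, 1744 in PD and 1712 in RS, and the second was highest in LZ at 1956 against 727 in PreL. Pachytene and diplotene markers were high in both PD (9967 CPM) and RS (8514 CPM). Markers of Sertoli cells summed to at most 92.8 CPM in any library, in LZ, and those of Leydig cells, peritubular cells, macrophages and endothelial cells to at most 26.4 CPM. Of these lists, all 8 Sertoli genes, all 4 peritubular genes, all 3 endothelial genes, 1 of 5 Leydig genes and 2 of 4 macrophage genes passed the filter on low counts, and none was at 0 in every library. The libraries PreL replicate 2 and LZ replicate 2 stood apart: the 24 Spata genes that were highest in RS had a median level of 2.71% and 2.25% of their mean RS level there, against 0.346% to 0.816% in the other 4 libraries of PreL and LZ. They are singled out here by the levels of the Spata genes themselves, so fits without them are no independent check. Summed round spermatid markers stood at 1.92% of their RS level in PreL replicate 2, against 0.13% and 0.59% in PreL replicates 1 and 3. In LZ their sum was highest in replicate 1, at 5.15% against 1.69% in replicate 2, but the single markers were split. Tnp1, Tnp2, Prm1 and Prm2 were at 4.65% to 13.4% in LZ replicate 1 and 1.27% to 2.08% in replicate 2. Acrv1, Catsper3 and Txndc8 were at 0.228%, 0.0972% and 0.465% in replicate 1 and 1.96%, 0.804% and 1.18% in replicate 2. Results that rest on PreL replicate 2 and LZ replicate 2 are given with and without these 2 libraries.

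Most Spata genes had their highest level at the end of the series. Of the 29, 24 had their highest mean in RS (82.8%, against 27.1% of the 18547 genes tested), and these were Spata1, Spata2l, Spata3, Spata6, Spata7, Spata9, Spata16, Spata17, Spata18, Spata19, Spata20, Spata21, Spata24, Spata25, Spata31, Spata31d1a, Spata31d1b, Spata31d1c, Spata31d1d, Spata32, Spata33, Spata45, Spata46 and Spata48. Each of the other populations held 1 gene: Spata13 was highest in Undiff.Spg (background 19.5%), Spata2 in Diff.Spg (10.7%), Spata5l1 in PreL (8.58%), Spata5 in LZ (17.4%) and Spata4 in PD (16.7%). All 29 genes differed among the 6 groups (edgeR quasi-likelihood test, adjusted p under 0.05), which 99.0% of all tested genes did as well. In these bulk samples a lower level can come from fewer cells of a type or from less RNA per cell, and the 2 cannot be told apart.

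**Figure D1:**
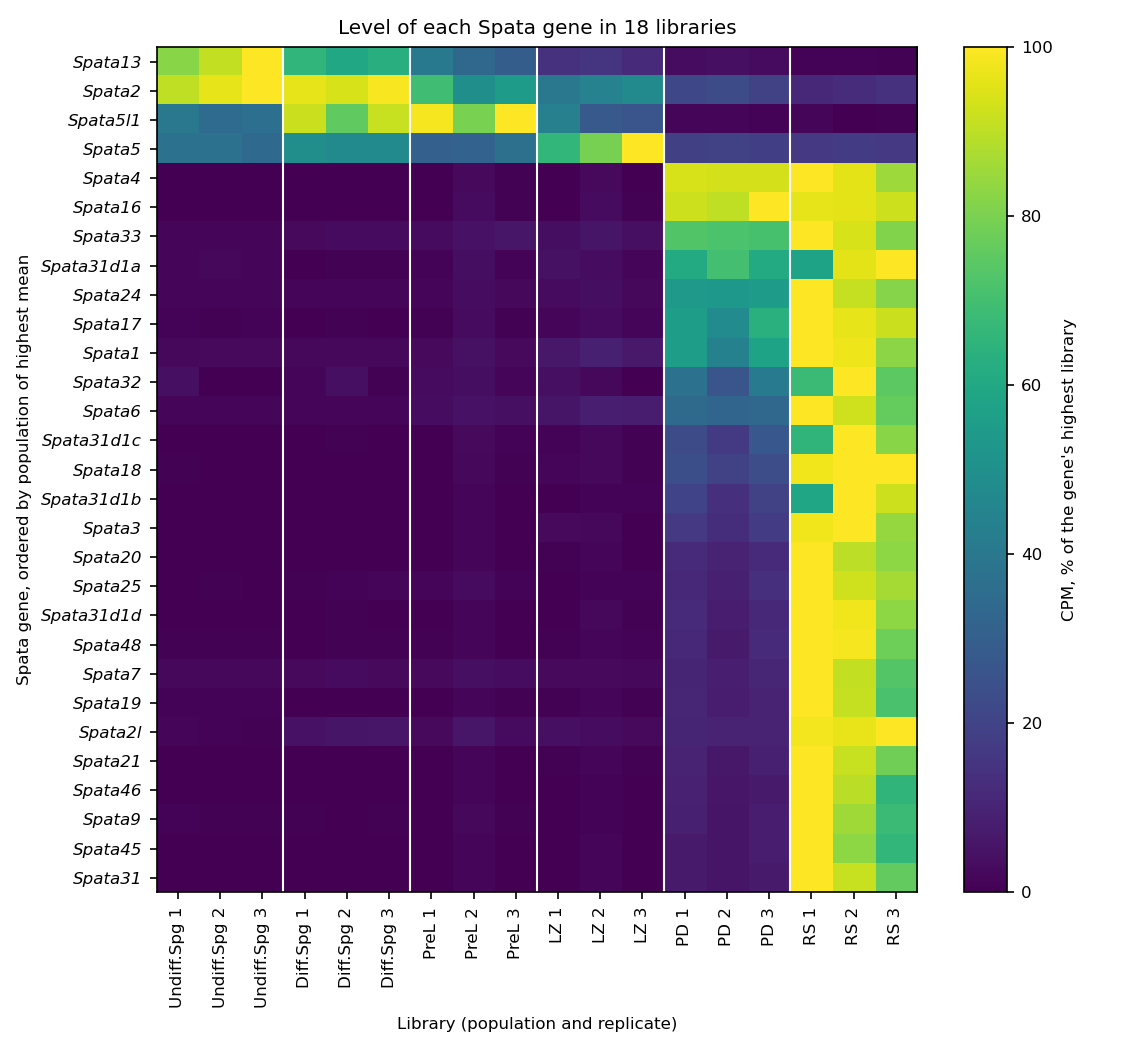
Heat map of the 29 Spata genes (rows) in the 18 libraries (columns, 3 per population, white lines between populations), coloured by CPM as a percentage of the gene's own highest library. The 4 genes at the top are brightest before PD, Spata4 and Spata16 are about equally bright in PD and RS, and the remaining rows are brightest in RS.

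Summed over the 29 genes, Spata transcripts made up 559 ± 12 CPM in Undiff.Spg (SD, n = 3 here and below), 665 ± 4.49 in Diff.Spg, 617 ± 113 in PreL and 1046 ± 179 in LZ. The sum was 5062 ± 225 CPM in PD and 12490.3 ± 1246 CPM in RS. The 3 RS libraries lay between 11127 and 13569 CPM, above every PD library (4803 to 5209), and every PD library lay above the 12 earlier ones (at most 1165).

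A peak was called where the level in 1 population was at least 2-fold above each of the 5 others with an adjusted p under 0.05 in all 5 tests. It was called for 18 Spata genes, all in RS (62.1%, against 14.1% of all tested genes for RS): Spata2l, Spata3, Spata6, Spata7, Spata9, Spata18, Spata19, Spata20, Spata21, Spata25, Spata31, Spata31d1b, Spata31d1c, Spata31d1d, Spata32, Spata45, Spata46 and Spata48. The same 18 were called without PreL replicate 2 and LZ replicate 2. No Spata gene had such a peak in Undiff.Spg, Diff.Spg, PreL, LZ or PD, where 7.25%, 1.44%, 0.270%, 4.53% and 4.26% of all tested genes had one (31.9% over all 6 groups). In 22 genes the 3 RS libraries all lay above the other 15 (75.9%, against 21.8% of all tested genes). The same held for Spata13 in Undiff.Spg, where 13.8% of all genes did so, and for Spata5 in LZ, where 10.4% did. That made 24 genes in all, against 65.0% of all tested genes, and none in Diff.Spg, PreL or PD, where 5.35%, 2.39% and 11.3% of all genes did. The libraries overlapped those of the next group for Spata2, Spata4, Spata5l1, Spata16 and Spata31d1a.

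The highest levels in RS, in CPM, belonged to Spata21, Spata20 and Spata6. Spata21, which encodes a protein with EF-hand motifs, had 1986, 1819 and 1555 CPM in the 3 RS libraries, 194, 131 and 172 in PD, and 35 or less in each earlier library (chr4:141088333-141112760, GRCm38). The groups did not overlap, and the RS level exceeded the PD level by 3.43 ± 0.84 on the log2 scale (SE, adjusted p = 0.00189). Spata20, which encodes a protein with a thioredoxin-like domain, had 1883, 1699 and 1566 CPM in RS and 231, 183 and 229 in PD (chr11:94478904-94486179), a log2 difference of 3 ± 0.79 (adjusted p = 0.00333). Spata6, needed in mice for the connecting piece that joins sperm head and tail, had 1589, 1476 and 1216 CPM in RS and 551, 518 and 539.7 in PD (chr4:111719984-111829184). Its RS level was higher by 1.41 ± 0.15 (adjusted p = 5.21e-07), and unlike the former pair it was already at 90.9, 133 and 119 CPM in LZ.

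Divided by exon length, the order in RS was led by Spata4 at 1278 CPM per kb, Spata21 at 679.7, Spata20 at 597, Spata24 at 589, Spata46 at 440.4 and Spata16 at 379.8 CPM per kb. Spata13 was last at 0.062 CPM per kb. Spata20 and Spata24, next to each other in this order, differed by less than the spread between libraries.

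The promoters of Spata4 and Spata21 are shown because these were the genes with the highest CPM per kb among those highest in PD and in RS. Those of Spata5 and Spata7 were added after their values were seen, as the gene highest in LZ and as the one holding the full cAMP response element. Each runs from 250 bases before to 50 bases after the start, 5′ to 3′ on the + strand of GRCm38.p6 as given by RefSeq, at chr8:54600531-54600830, chr4:141088095-141088394, chr3:37419700-37419999 and chr12:98627892-98628191. Capitals mark a match to a searched motif on either strand.
Spata4: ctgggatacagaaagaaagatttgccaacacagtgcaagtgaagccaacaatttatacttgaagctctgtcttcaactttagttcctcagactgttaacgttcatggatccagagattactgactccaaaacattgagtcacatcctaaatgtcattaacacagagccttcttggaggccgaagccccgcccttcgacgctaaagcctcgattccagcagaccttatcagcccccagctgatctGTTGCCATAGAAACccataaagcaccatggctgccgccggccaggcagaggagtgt
Spata21: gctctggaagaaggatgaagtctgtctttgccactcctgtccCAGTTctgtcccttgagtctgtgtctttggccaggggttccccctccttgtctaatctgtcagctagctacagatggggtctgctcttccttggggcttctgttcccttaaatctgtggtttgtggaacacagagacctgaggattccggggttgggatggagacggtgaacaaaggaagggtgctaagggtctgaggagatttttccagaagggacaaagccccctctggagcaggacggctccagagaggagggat
Spata5: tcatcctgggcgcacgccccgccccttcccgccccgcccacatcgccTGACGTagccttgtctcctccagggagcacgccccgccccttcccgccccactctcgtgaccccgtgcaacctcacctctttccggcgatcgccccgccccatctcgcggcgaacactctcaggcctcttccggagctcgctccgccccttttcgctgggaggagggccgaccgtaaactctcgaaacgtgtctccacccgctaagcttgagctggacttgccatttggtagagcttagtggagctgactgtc
Spata7: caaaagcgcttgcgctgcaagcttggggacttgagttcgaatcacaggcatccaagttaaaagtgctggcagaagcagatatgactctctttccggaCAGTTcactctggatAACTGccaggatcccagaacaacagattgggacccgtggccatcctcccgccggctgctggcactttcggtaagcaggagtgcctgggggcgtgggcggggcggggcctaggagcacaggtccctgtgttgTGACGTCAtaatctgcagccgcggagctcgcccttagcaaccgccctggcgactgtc

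RefSeq promoters were found for 27 of the 29 genes, with 34 entries because some genes have several starts, and 5 motifs were searched on both strands. The cAMP response element TGACGTCA, bound by the CREB and CREM factors, was in 2.94% of the Spata promoters and 1.79% of all 32851 promoters, and the Spata7 promoter held the 1 match. Its core TGACGT, which lies within the full element and so is counted there too, was in 17.6% against 7.51%, in the promoters of Spata5, Spata6, Spata7, Spata18, Spata32 and Spata48. The MYB core AACTG was in 47.1% against 44.8%. The shorter RFX factor site GTTGCCA was in 8.82% against 4.38%, in the promoters of Spata4, Spata31d1a and Spata33. The longer X-box of RFX factors was added after the values were seen and was in 2.94% against 0.25%. Its 1 match among Spata genes overlaps the shorter site of Spata4, 6 bases before the start. These shares describe letters in a window and were not tested.

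The 24 genes highest in RS differed in how much of that level was already present in PD. In 12 genes the PD mean was 7.56% to 12.5% of the RS mean (median 10.4%): Spata2l, Spata7, Spata9, Spata19, Spata20, Spata21, Spata25, Spata31, Spata31d1d, Spata45, Spata46 and Spata48. In 6 it was 17% to 42.9% (Spata3, Spata6, Spata18, Spata31d1b, Spata31d1c and Spata32), and in the remaining 6 it was 56.4% to 99.3% (Spata1, Spata16, Spata17, Spata24, Spata31d1a and Spata33). Among 6491 autosomal genes of at least 20 CPM in RS, the 5th percentile of the same ratio was 9%, the 10th 11.7%, the 25th 47.5% and the median 88.9%. That set is unlike the 24 genes, since it was not limited to genes highest in RS and leaves out Spata32 (15.7 CPM in RS). Its percentiles therefore do not say how low the Spata ratios are among genes highest in RS. Among round spermatid markers, Catsper3 was at 7.76%, Acrv1 at 8.06% and Txndc8 at 8.3%, and the packaging protein genes Tnp1, Tnp2, Prm1 and Prm2 at 27.7% to 40.4%. The part of RS-type cells in the PD sort in the lowest of these ratios was not tested. PD replicate 2 was the lowest PD library in 21 of the 24 genes, which was so for 65.1% of all genes highest in RS.

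**Figure D2:**
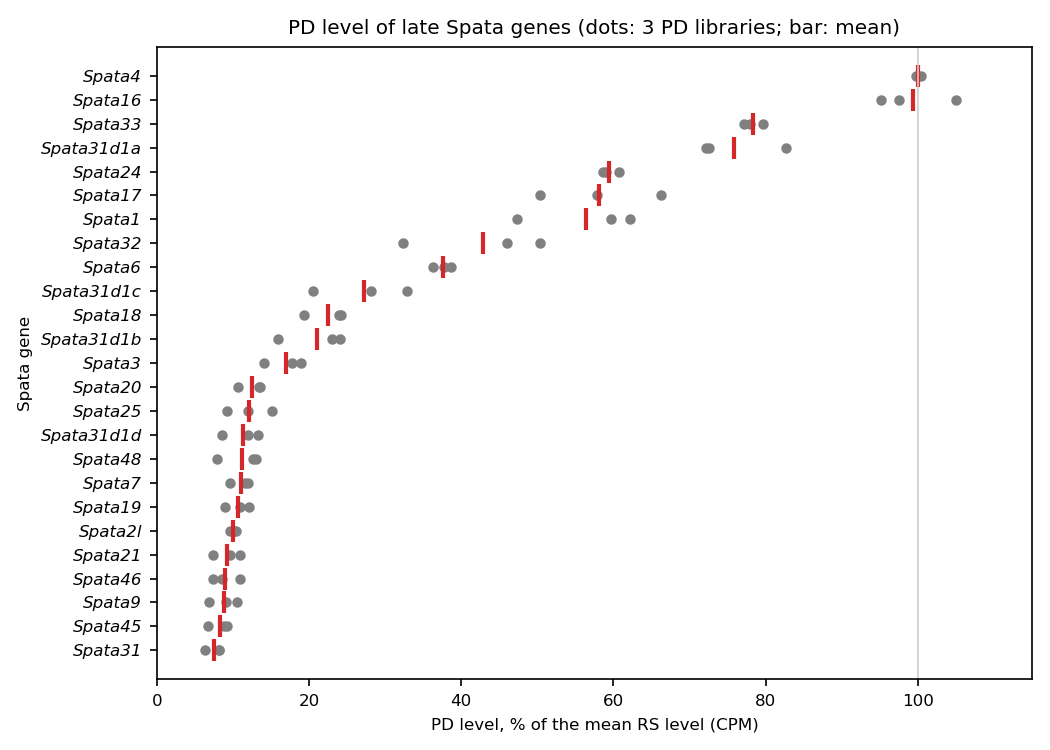
PD level of each of the 24 Spata genes highest in RS, and of Spata4, as a percentage of the mean RS level in CPM (x axis). Dots are the 3 PD libraries and red bars their mean, and the grey line at 100 marks equality with RS. The lowest 12 genes sit between 7.56% and 12.5%, while Spata4 and Spata16 lie at about the RS level.

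Among the Spata genes highest in PD or RS, Spata4 and Spata16 had the closest means in those groups. Their standard errors, given below, are too wide to call the levels equal. Over the alternatives the log2 difference ran from -0.22 to 0.17 for Spata4 and from -0.2 to 0.17 for Spata16. Spata4, for which no function is given here, had 1357, 1348 and 1351 CPM in PD and 1442, 1384 and 1228 in RS (chr8:54600781-54610098). The PD libraries lay inside the range of the RS libraries, and the log2 difference of 0 ± 0.74 had an adjusted p of 1, so its rank in PD does not differ from RS beyond the spread. Spata16, a protein of the Golgi and forming acrosome that is mutated in some human globozoospermia, had 782, 764 and 845 CPM in PD and 814, 811 and 781 in RS (chr3:26637620-26983212). The groups overlapped, and the log2 difference of 0.01 ± 0.76 also had an adjusted p of 1. Spata31d1a overlapped too, with 32.8, 37.5 and 32.7 CPM in PD and 31.1, 51.3 and 53.6 in RS (adjusted p = 0.261).

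Spata33 and Spata17 were higher in every RS library than in any PD library, but the 6-group fit did not pass the test. Spata33, which in mice ties calcineurin to the mitochondria of the sperm midpiece, had 585, 573 and 567 CPM in PD and 801, 754 and 648 in RS (chr8:123212832-123222046). The log2 difference was 0.35 ± 0.20 (adjusted p = 0.144), and with only those groups fitted the adjusted p was 0.00685, with RLE scaling 0.0476 and without PreL replicate 1 0.0471. Spata17, which encodes a protein with calmodulin-binding IQ motifs, had 176, 153 and 201 CPM in PD and 316, 304 and 291 in RS, a log2 difference of 0.78 ± 0.41 (adjusted p = 0.118). Without PreL replicate 2 and LZ replicate 2 its adjusted p was 2.65e-06, and with only PD and RS fitted it was 9.36e-05. Spata1 and Spata24 passed the test at less than 2-fold, by 0.83 ± 0.20 (adjusted p = 0.00157) and 0.75 ± 0.25 (adjusted p = 0.0157). For Spata24 the test was not passed by total library size or without RS replicate 1 or any 1 of the PD libraries.

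The 5 successive comparisons followed the Spata genes from population to population, where a gene was called at an adjusted p under 0.05 and at least 2-fold. Neighbouring comparisons share a population, so their values are set side by side and not correlated. From Undiff.Spg to Diff.Spg, 2 Spata genes rose (background 9.51%) and 2 fell (14.8%). From Diff.Spg to PreL, 7 rose (9.20%) and 0 fell (16.5%), from PreL to LZ 2 rose (14.6%) and 3 fell (13.1%), from LZ to PD 25 rose (36.8%) and 4 fell (35.0%), and from PD to RS 18 rose (24.5%) and 1 fell (19.7%). With no condition on fold, the counts higher were 4 (background 20.4%), 9 (20.4%), 3 (24.3%), 25 (42.1%) and 20 (30.3%), and the counts lower were 3 (23.0%), 3 (24.8%), 5 (23.2%), 4 (40.8%) and 2 (28.6%). The median log2 fold change of the 29 genes was 0.01, 1.4, 0.01, 3.54 and 2.15 in that order, against 0, 0.02, 0, 0 and 0 over all tested genes. Scaling by total library size moved the median of all genes by -0.2 at the step into LZ, -0.35 into PD and -0.14 into RS, and RLE scaling moved it by 0.14 into RS. At the step into LZ the higher share of all calls was 52.8%, or 39.9% by total library size, and among Spata genes 2 rose and 3 fell, or 1 and 3. The 0 Spata genes called lower from Diff.Spg to PreL by edgeR compared with 0 by DESeq2 and with 3 at an unadjusted p under 0.05, none of them 2-fold. The same 18 genes rose at both of the last steps, which 11.9% of all tested genes did.

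**Figure D3:**
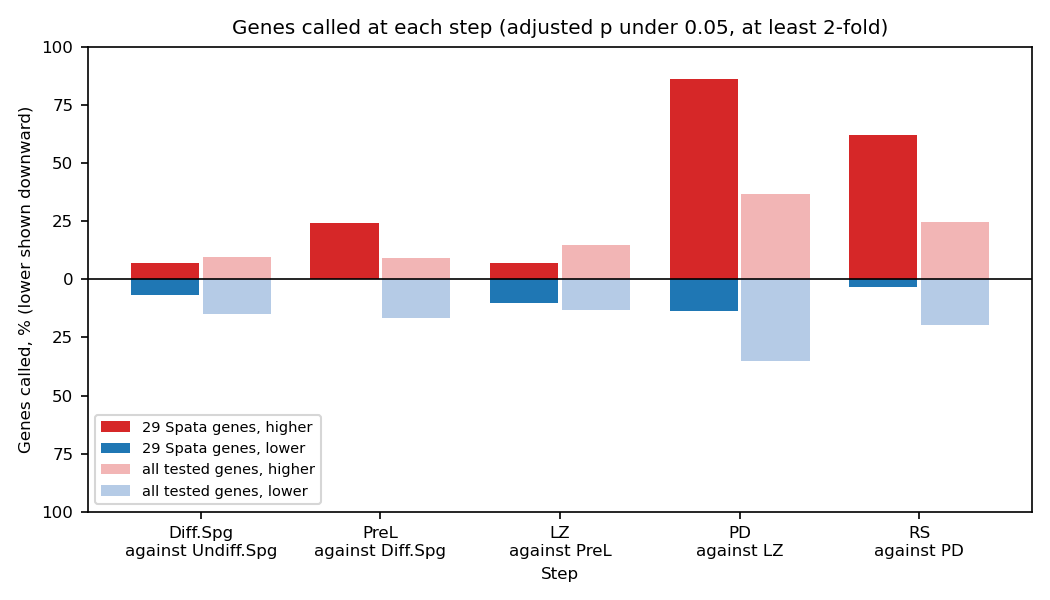
Percentage of genes called higher (upward bars) and lower (downward bars) at each of the 5 steps, for the 29 Spata genes (dark) and all 18547 tested genes (pale). The dark bars are tallest at the last 2 steps, where 86.2% and 62.1% of Spata genes were called higher.

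At the step from LZ to PD the largest rises were those of Spata4, Spata16 and Spata17. Spata4 went from 4.52, 37.7 and 4.92 CPM in the LZ libraries to the PD values above, a log2 fold change of 6.42 ± 0.94 (adjusted p = 7.9e-06). Spata16 went from 1.46, 26.1 and 5.07 CPM, a rise of 6.19 ± 0.96 (adjusted p = 1.46e-05). Spata17 went from 4.37, 9.86 and 3.82 CPM, a rise of 4.87 ± 0.50 (adjusted p = 1.02e-07). All PD libraries lay above all LZ libraries in the 3 genes, and LZ replicate 2 was the highest LZ library in each. Without LZ replicate 2 the rise was 8.16 for Spata4 and 7.92 for Spata16. The same omission raised the log2 fold change from 3.4 to 5.29 for Spata31, from 3.54 to 5.64 for Spata45, from 3.43 to 4.72 for Spata31d1d, from 3.97 to 5.19 for Spata46, from 3.82 to 4.98 for Spata20, from 3.67 to 4.67 for Spata9, from 3.17 to 4.04 for Spata21, from 3.5 to 4.19 for Spata19 and from 4.26 to 4.97 for Spata31d1c. Without LZ replicate 3 it was 5.82 for Spata4, 3.22 for Spata20, 2.8 for Spata31, 2.64 for Spata3 (3.32 with it) and 3.3 for Spata32 (4.07 with it, and 4.9 without LZ replicate 1). All 29 calls of this step held without PreL replicate 2 and LZ replicate 2.

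At the step from PD to RS the largest rises were those of Spata31, Spata45 and Spata9. Spata31, a testis gene first described for a protein of the acrosome, had 52.9, 41 and 52.7 CPM in PD and 725, 663 and 552 in RS, a log2 fold change of 3.73 ± 0.89 (adjusted p = 0.00163). Spata45 had 12.5, 9.56 and 13 CPM in PD and 170.2, 141 and 113 in RS, a rise of 3.6 ± 0.60 (adjusted p = 5.82e-05). Spata9 had 20.9, 13.5 and 18.1 CPM in PD and 234, 201 and 159.7 in RS, a rise of 3.5 ± 0.44 (adjusted p = 3.46e-06). No PD library of the 3 genes overlapped an RS library, and RS replicate 1 was the highest in each. RS replicate 1 was the highest RS library in 17 of the 24 genes highest in RS, against 53.4% of all genes highest there. All 19 calls of this step held without PreL replicate 2 and LZ replicate 2. The call for Spata32, an acrosomal protein gene, was the least firm of them, with 1.22 ± 0.46 (adjusted p = 0.0307), and it passed the test in 18 of 26 alternatives, not by DESeq2, by total library size or without any 1 of the PD or RS libraries.

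Several of the late genes are known from mouse mutants for parts of the sperm. Spata19, whose protein sits on midpiece mitochondria and is needed for sperm motility, had 266, 243 and 190.0 CPM in RS and 28.1, 20.8 and 25.5 in PD, a rise of 3.23 ± 0.44 (adjusted p = 8.34e-06). Spata46, needed for head shape and for fusion with the egg, had 399, 358 and 261 CPM in RS and 37.1, 24.8 and 29.3 in PD, a rise of 3.48 ± 0.71 (adjusted p = 0.000438). For both, the groups did not overlap and RS replicate 3 was the lowest RS library. Spata7, a gene of the photoreceptor connecting cilium that is mutated in human retinal dystrophy, had 509, 463 and 372 CPM in RS and 51.9, 43.4 and 53.8 in PD, a rise of 3.17 ± 0.16 (adjusted p = 1.8e-10). Unlike most late genes it was also measurable earlier, at 11.1 to 19.9 CPM in the 12 libraries before PD.

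The Spata31 genes lie together on chromosome 13, which held 6 of the 29 genes, and none lay on X or Y. Spata31d1a (chr13:59699806-59710330), Spata31d1b (chr13:59712284-59719295) and Spata31d1d (chr13:59725925-59731752) are neighbours, and Spata31 (chr13:64917406-64923194) and Spata31d1c (chr13:65033058-65038004) lie further along. Their PD means were 75.8%, 21%, 11.3%, 7.56% and 27.2% of their RS means in that order. RS means ran from 31.5 ± 6.61 CPM for Spata31d1c to 647 ± 88 CPM for Spata31. RS replicate 1 was the lowest RS library for Spata31d1a, Spata31d1b and Spata31d1c, at 31.1, 71.2 and 24.9 CPM, and the highest for Spata31 and Spata31d1d, at 725 and 284 CPM. Spata31d1a and Spata31d1b share 19.8% and 24.9% of their 50-base stretches, mostly with each other, so reads may have been split between them and their values are uncertain.

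Before PD, 4 Spata genes were highest, and all 4 fell from LZ to PD. Spata13 had 54.7, 60.3 and 66.5 CPM in Undiff.Spg and fell at each following step (chr14:60634001-60764556). It had 43.7, 39.5 and 41.7 CPM in Diff.Spg (log2 fold change -0.54 ± 0.14, adjusted p = 0.00478), 26.8, 22.1 and 19.7 in PreL (-0.86 ± 0.14, 0.000121) and 9.43, 10.1 and 7.93 in LZ (-1.32 ± 0.15, 1.96e-06). It then had 2.2, 2.82 and 1.86 CPM in PD (-1.99 ± 0.18, 2.27e-08) and 0.625, 0.551 and 0.518 in RS (-2.01 ± 0.27, 7.3e-06). No neighbouring groups overlapped, and Spata13 was the only Spata gene called at least 2-fold lower from PD to RS.

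Spata2, an adaptor that brings the deubiquitinase CYLD to the linear ubiquitin ligase complex, was equally high in both spermatogonial groups. It had 96.6, 103 and 107 CPM in Undiff.Spg and 103, 100.5 and 106 in Diff.Spg (0.01 ± 0.13, adjusted p = 0.97), so its rank in Diff.Spg does not differ from Undiff.Spg beyond the spread (chr2:167481133-167492887). It fell by 0.73 on the log2 scale in PreL (SE 0.13, adjusted p = 0.000217), by 0.39 in LZ (0.13, 0.0183), by 1.03 in PD (0.13, 1.8e-06) and by 0.75 in RS (0.14, 0.000143). The fall into LZ did not pass without PreL replicate 1 or without LZ replicate 1, where the adjusted p reached 0.117. The RS libraries held 12.3, 13.6 and 15.3 CPM. Its paralog Spata2l went the other way, with 68.8, 67.6 and 70 CPM in RS and 7.14, 6.92 and 6.64 in PD.

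Spata5 encodes an AAA-type ATPase that acts in the maturation of the large ribosomal subunit, and Spata5l1 is named for its likeness to it. GENCODE M21 classes the Spata5l1 row as a processed transcript with 1547 exon bases, the only one of the 29 not classed as protein-coding, while RefSeq lists Spata5l1 as protein-coding. Its values are therefore those of the annotated transcript. Spata5l1 had 12.7, 11.1 and 11.6 CPM in Undiff.Spg, 29.1, 23.9 and 28.9 in Diff.Spg and 31.2, 25.2 and 31.6 in PreL (chr2:122630625-122632930). It rose by 1.21 ± 0.19 from Undiff.Spg to Diff.Spg (adjusted p = 7.59e-05), Diff.Spg and PreL overlapped (0.11 ± 0.19, adjusted p = 0.662), and it was at 13.8, 8.88 and 8.3 CPM in LZ and at 0.549 CPM or less in every PD and RS library. The fall from LZ to PD was -4.44 ± 0.30 (adjusted p = 5.55e-10), the largest among the Spata genes at that step. Spata5 had 533, 639.6 and 804 CPM in LZ, more than in any other library, against 246, 253 and 298 in PreL (chr3:37419896-37579096). It rose by 1.31 ± 0.13 into LZ (adjusted p = 4.2e-07) and fell by 2.12 into PD (SE 0.13, adjusted p = 1.53e-10), to 153, 155 and 149 CPM. Diff.Spg, with 398, 386 and 383 CPM, was the next highest group, 0.76 ± 0.13 below LZ (adjusted p = 5.55e-05), and Undiff.Spg had a mean of 291 ± 14.2 CPM.

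**Figure D4:**
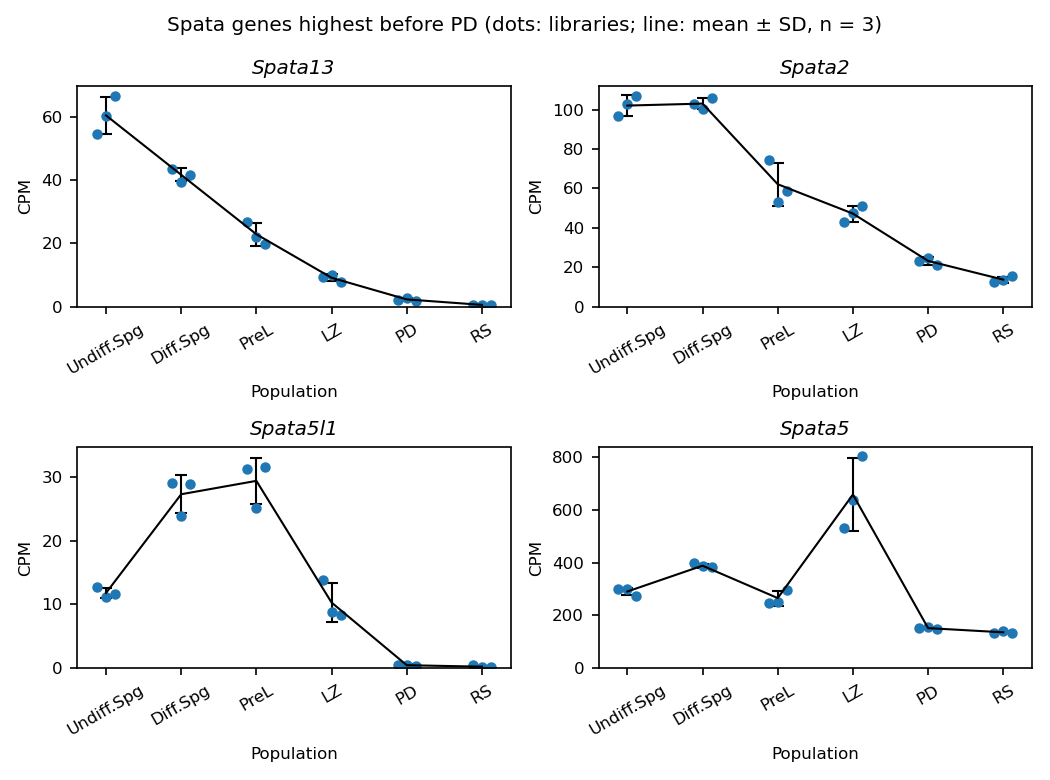
CPM of Spata13, Spata2, Spata5l1 and Spata5 (panels, linear axes from 0) in the 6 populations, with dots for libraries and lines through the mean ± SD (n = 3). Spata13 declines from Undiff.Spg, Spata2 is level across both spermatogonial groups, Spata5l1 is highest in Diff.Spg and PreL, and Spata5 is highest in LZ at 533 to 804 CPM.

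The early steps moved fewer Spata genes, and most of those values were low. From Undiff.Spg to Diff.Spg, Spata2l went from 0.913, 0.739 and 0.348 CPM to 3.37, 3.89 and 4.17, a rise of 2.49 ± 0.34 (adjusted p = 1.64e-05). Spata19 went the other way, from 2.94, 2.89 and 2.5 CPM to 0.211, 0.54 and 0.436 (-2.74 ± 0.69, adjusted p = 0.00392). Spata31d1a went from 0.978, 1.07 and 0.904 CPM to 0.0702, 0.324 and 0.374 (-1.86 ± 0.63, adjusted p = 0.0249). The groups did not overlap in these 3 genes. The call for Spata31d1a was lost without Undiff.Spg replicate 1 (adjusted p = 0.0509), Undiff.Spg replicate 2 (0.0607) or Diff.Spg replicate 1 (0.0905). Summed round spermatid markers stood at 0.212% to 1.4% of their RS level in the Undiff.Spg libraries and 0.165% to 0.393% in Diff.Spg, and their part in the 2 falls was not tested.

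From Diff.Spg to PreL, the 7 Spata genes called higher were Spata4, Spata6, Spata16, Spata17, Spata18, Spata19 and Spata31d1a, and most of these calls rested on PreL replicate 2. Spata4 had 1.47, 2.65 and 0.374 CPM in Diff.Spg and 3.41, 37.2 and 10.1 in PreL (3.47 ± 0.90, adjusted p = 0.00492), and the rise was 2.11 without PreL replicate 2. Spata18, whose protein takes part in mitochondrial quality control, had 0.0702, 0.27 and 0.374 CPM in Diff.Spg and 0.114, 4.94 and 1.57 in PreL (3.15 ± 0.97, adjusted p = 0.014). Spata16 had 1.05, 2.7 and 0.56 CPM in Diff.Spg and 2.56, 26.4 and 3.93 in PreL (2.9 ± 0.93, adjusted p = 0.0176). In all 3 genes PreL replicate 2 was far above the other PreL libraries, and Spata16 and Spata18 overlapped between the groups. Without PreL replicate 2 the log2 fold change was 1.62 for Spata18 (adjusted p = 0.217), 1.11 for Spata16 (0.318), 0.39 for Spata17, 1.18 for Spata19 and 1.07 for Spata31d1a. Without Diff.Spg replicate 1 the adjusted p was 0.0531 for Spata18 and 0.0636 for Spata16, and without Diff.Spg replicate 3 it was 0.0738 for Spata16. Summed round spermatid markers stood at 1.92% of their RS level in PreL replicate 2, against 0.13% and 0.59% in PreL replicates 1 and 3. Over the 3 PreL libraries pachytene and diplotene markers ran from 35.3 to 293 CPM and elongating spermatid markers from 3.92 to 69.1 CPM, and the part of such cells in these rises was not tested. Without both libraries that stood apart, 3 genes were called, with Spata4 and Spata6 kept, the other 5 lost and Spata2l newly lower. Without PreL replicate 1, PreL replicate 3 or Diff.Spg replicate 1 the count was 16, 13 or 2. Spata6 did not rest on 1 library: it had 25.3, 26.6 and 24.5 CPM in Diff.Spg and 54.9, 79.4 and 67.3 in PreL, without overlap (1.4 ± 0.15, adjusted p = 1.9e-06).

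**Figure D5:**
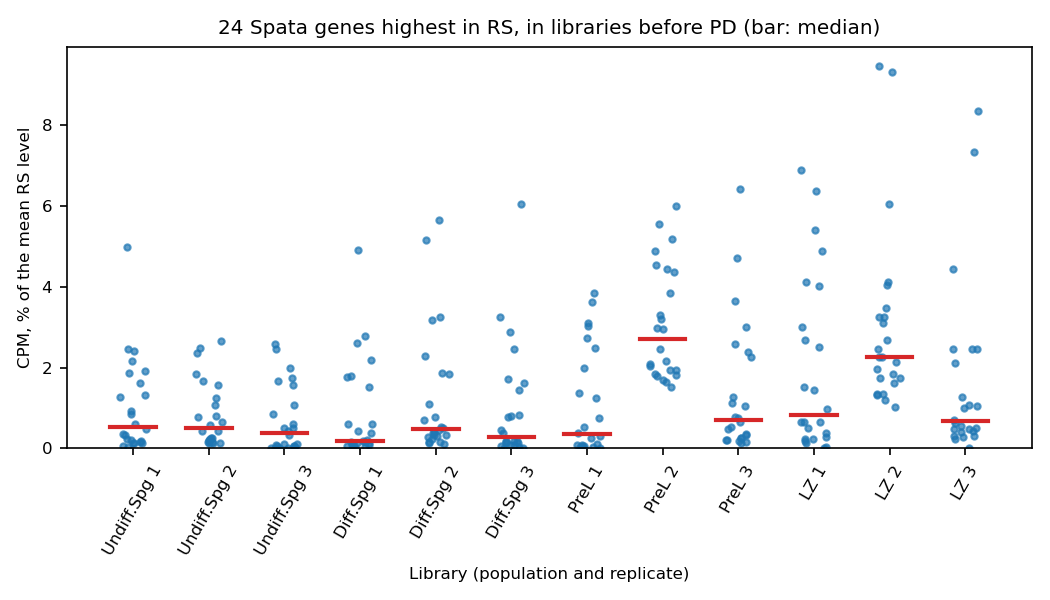
CPM of the 24 Spata genes highest in RS, as a percentage of each gene's mean RS level, in the 12 libraries before PD (dots, with the median as a red bar). PreL replicate 2 and LZ replicate 2 have medians of 2.71% and 2.25%, above the other libraries shown.

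From PreL to LZ, Spata5 and Spata1 were called higher and Spata5l1, Spata25 and Spata13 lower. Spata1 had 16.1, 28.9 and 15.4 CPM in PreL and 40.9, 56.1 and 43.5 in LZ, without overlap (1.21 ± 0.20, adjusted p = 9.66e-05). Its adjusted p passed in 26 of 26 alternatives, but by total library size the log2 fold change was 0.97, under 2-fold, so its call was lost there. Spata25 was near the limit of detection, with 0.682, 1.1 and 0.357 CPM in PreL and 0.0767, 0.352 and 0.367 in LZ, which overlapped (-1.42 ± 0.55, adjusted p = 0.0427). With the replicate number as a block its adjusted p was 0.0577, without LZ replicate 1 it was 0.159 and without PreL replicate 2 it was 0.192. It was also lost without PreL replicate 1, LZ replicate 2, Undiff.Spg replicate 1 or Diff.Spg replicate 2. In LZ the 24 late genes were highest in replicate 2 in 19 cases, and in PreL in replicate 2 in 23 cases. These 2 orders were not counted over all genes highest in RS, so they are not given as particular to Spata genes. Without PreL replicate 2 the count at this step was 14, and without both libraries it was 9, with Spata3, Spata17, Spata18, Spata21 and Spata31d1a added as higher and Spata25 lost. LZ replicate 1 held 5.15% of the RS level of the summed round spermatid markers, against 0.906% to 1.69% in the other LZ libraries, while its Spata median was 0.816%. Of those markers, Tnp1, Tnp2, Prm1 and Prm2 were higher in LZ replicate 1 than in replicate 2, and Acrv1, Catsper3 and Txndc8 were lower.

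Several Spata genes overlap genes on the opposite strand, and whether counting used strand is not given in the sources used here, so reads of such pairs cannot be told apart. Spata25 shares 21.5% of its exon bases with Zswim1, which had 13554 counts over all libraries against 1238 for Spata25. Spata48 shares 12% with Zpbp (27462 counts against 2920), and Spata2l shares 11.6% with Cdk10 (8616 against 2752). For Spata5 the shared part with Nudt6 was 8.13% and Nudt6 had fewer counts (1006 against 81050). The RS rise of Spata48 was 3.16 ± 0.28 from PD (adjusted p = 6.85e-08), while Zpbp had 318 ± 17.5 CPM in PD and 515 ± 38 in RS.

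A list of 46 genes, written from general knowledge, set genes of a shared structure or process beside Spata proteins, and 45 were tested. Being listed does not mean that a direct partnership is known. From LZ to PD 20 of them rose and 14 fell, and from PD to RS 11 rose and 8 fell, beside the background shares given above, and 22 were highest in RS and 5 in PD. All 7 listed genes of the sperm calcineurin and midpiece group, set beside Spata19 and Spata33, rose from LZ to PD, where 36.8% of all tested genes rose. Among them, the testis calcineurin subunit gene Ppp3r2 had 971 ± 35.4 CPM in PD and 804 ± 23 in RS, and the mitochondrial channel gene Vdac2 had 991 ± 49.1 and 1272 ± 30.5. Of the 7 genes listed with Spata6, 5 rose from LZ to PD (36.8% of all tested genes) and 4 from PD to RS (24.5%). Among them, the tail protein gene Odf1 had 93.6 ± 18 CPM in PD and 901 ± 135 in RS (adjusted p = 0.00202). Of the 7 listed with Spata16, 5 rose from LZ to PD. Of the 6 listed with Spata7, 3 rose and 1 fell at that step, where 36.8% of all tested genes rose and 35.0% fell. All 6 were highest in RS, as 27.1% of all tested genes were. Of the 4 genes listed with Spata18, 0 were called higher at any step (Bnip3 rose by 0.96 from Undiff.Spg to Diff.Spg, adjusted p = 2.89e-05, under 2-fold). From LZ to PD 2 fell (35.0% of all tested genes) and from PD to RS 2 fell (19.7%). None was highest in PD (16.7% of all tested genes) or RS (27.1%), while Spata18 peaked in RS. Trp53 from LZ to PD (0.21) and Vdac1 from PD to RS (0.34) were not lower. These 4 genes are too few to give a direction for the group.

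Of the 6 genes listed with Spata2, 4 fell from LZ to PD, where 35.0% of all tested genes fell. Cyld, the deubiquitinase that Spata2 binds, was highest in LZ at 319.9 ± 46.7 CPM, where Spata2 itself was at 47.2 ± 4.09, and had 11.6 ± 2.16 CPM in PD (log2 fold change -4.79, adjusted p = 2.76e-13). Of the 4 tested genes listed with Spata5 and Spata5l1, 3 fell from LZ to PD, beside the 35.0% of all tested genes. Cinp (122 ± 27.1 CPM) and Nvl (119 ± 3.03 CPM) were highest in LZ, as Spata5 was. Rsl24d1 was highest in Undiff.Spg and Nop56 in Diff.Spg.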

How the data were processed

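Germ cell RNA was sequenced as single reads, per the labels' protocols, and the submitters' processing notes name cutadapt, STAR 2.4.2a, HTSeq, DESeq2 and the build GRCm38 without their roles. The authors deposited raw counts per gene, and the strand setting is not given in the sources used here. Gene names came from GENCODE M21 (46091 of 46603 IDs, 98.9%). IDs without a name held at most 0.109% of a library's counts. One gene meeting the symbol pattern is not reported here. The members and lists were chosen with earlier results of these data known, the list of genes set beside Spata proteins from general knowledge.

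Counts were filtered with filterByExpr (18547 genes), scaled by TMM and fitted as 1 model of 6 groups in edgeR 4.0.16 (R 4.3.3, quasi-likelihood, 2-sided, Benjamini-Hochberg adjustment over all tested genes). The common biological coefficient of variation was 20.2%. SE is the log2 fold change over the root of F. It rests on 1 estimate of the spread per gene over all 6 groups. Uneven libraries in PreL or LZ therefore enter the SE of the other steps too. CPM per kb used exon union length. The fits were also run on simulated counts in which every gene had the same spread and no library stood apart. That run does not cover genes with unequal libraries, such as those of PreL and LZ. Alternatives were RLE or total-size scaling, other filters, DESeq2 1.42.0, 2-group fits, a replicate block and left-out libraries. Named genes were the 3 of highest CPM per population, those highest before PD, the 3 largest rises and falls per step, and genes known from mutants.

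Replicate pairs differed by more than counting noise (chi-square per degree of freedom 2.49 to 52.7), so none was merged. Replicate numbers come from the titles. Deviations of same-numbered libraries correlated at 0.346 to 0.773 between LZ and PreL, against -0.647 to 0.309 for unlike numbers. This was taken as pairing at that step. Between PreL and Diff.Spg same-numbered deviations correlated at 0.162 to 0.491, against -0.428 to 0.198 for unlike numbers, so pairing there is uncertain. Between Diff.Spg and Undiff.Spg they correlated at 0.039, 0.297 and 0.171, against -0.228 to 0.08 for unlike numbers, so pairing there is uncertain. At the later steps they ran from -0.246 to 0.136, which was not taken as pairing. The main fit held no block, and the replicate block was run only as an alternative. The spread between libraries, as well as the counts, sets the precision, and errors cover these libraries alone.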

Additional observations from a re-analysis of the deposited data

How the results depend on the processing

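The count from LZ to PD (29) was 27 to 29 over the alternatives run, that from PD to RS (19) was 18 to 22, and the RS peaks (18) numbered 17 to 20. From Diff.Spg to PreL the count of 7 was 12 with no filter on low counts, 11 with DESeq2, 3 with only those groups fitted, 12 with no fold condition, 3 without PreL replicate 2 and LZ replicate 2, and 2 to 16 when 1 library was left out. From PreL to LZ the count of 5 was 8 with no fold condition, 9 without both libraries, and 4 to 14 when 1 library was left out. From Undiff.Spg to Diff.Spg the count of 4 was 7 with no fold condition. The number of Spata genes highest in PD, 1, was 0 with RLE scaling or the median of 3 libraries. It was 2 by total library size and 1 to 2 when 1 library was left out. The means of Spata4 and Spata16 lie close together in PD and RS. With the replicate block the 5 counts were 4, 7, 4, 29 and 19, and among the named genes it ended only the Spata25 call. The cause of these shifts was not tested beyond the libraries named. No called value changed sign. Depth limits genes under about 1 CPM, where calls rest on few counts.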
